A study of Mus musculus with 8 samples.

Results

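The podocyte transcription factors Wt1, Lmx1b, Foxc1, Foxc2, Tcf21, Foxd1, Pax2 and Pax8 were followed in glomerular RNA of mice with and without Cd151, a membrane protein that binds laminin-receptor integrins. Every row of the deposited signal table whose gene symbol was 1 of these 8 names was taken, which gave 10 of the 25697 probes and 8 of the 18120 gene symbols on the array. The control group was 4 male Cd151+/+ mice and the other group 4 male Cd151-/- mice, homozygous for a deletion of the gene that is not restricted to podocytes. All 8 animals were of the inbred FVB/N strain and 3 weeks old, and each gave 1 glomerular isolate and 1 Illumina MouseRef-8 v1.1 bead array, on which short probes are read as mean bead brightness. The labels call the mice of a group biological replicates.

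Podocytes are the epithelial cells that cover the glomerular capillaries, and their interlocking foot processes carry the slit diaphragm that retains plasma protein. WT1 is a zinc finger factor that is required to form the kidney and remains on in mature podocytes, where LMX1B, a LIM homeodomain factor, TCF21, a basic helix-loop-helix factor, and the forkhead factors FOXC1, FOXC2 and FOXD1 also act. PAX2 and PAX8 are paired box factors of the early nephron that are switched off as podocytes mature and stay on in other nephron epithelia. A glomerular isolate also holds endothelial, mesangial and some tubular cells, so fewer podocytes and less of an mRNA in each podocyte cannot be told apart in these samples.

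The arrays fell into a pair of sets that cut across genotype. Background signal, the median of probes with a detection p between 0.4 and 0.6, was 58.4 to 69.2 for Cd151+/+ mice 1 and 2 and Cd151-/- mice 3 and 4, here the lower-background set, and 122 to 132 for the other 4 mice, the higher-background set. Between 11291 and 12359 probes were detected per array at a detection p of at most 0.05, and 14967 were detected on at least 1 array and tested. The deleted gene checked the labels: all 3 Cd151 probes were detected in 4 of 4 Cd151+/+ mice and 0 of 4 Cd151-/- mice, and the brightest was at least 523-fold lower in Cd151-/- mice (limma, Benjamini-Hochberg adjusted p = 6.51e-10).

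Wt1, Tcf21 and Foxc1 were detected in all 8 mice, Lmx1b, Foxc2, Foxd1 and Pax8 in some, and Pax2 in none. Of the 8 genes, 7 had a probe that could be tested, and 0 of the 7 passed the adjusted p threshold of 0.05 for genotype (limma with Benjamini-Hochberg adjustment over 14967 probes), against 0.0334% of all probes tested. At the unadjusted threshold of 0.05, 0 of the 7 passed, against 4.3% of all probes, although Foxc1 did under 5 of 18 alternative settings. For 0 of the 7 were the genotypes free of overlap, against 2.31% of all probes. The largest difference was in Foxc1, with a mean 1.65-fold lower in Cd151-/- mice that did not pass the test. Wt1 differed between the array sets and not detectably between the genotypes.

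**Figure D1:**
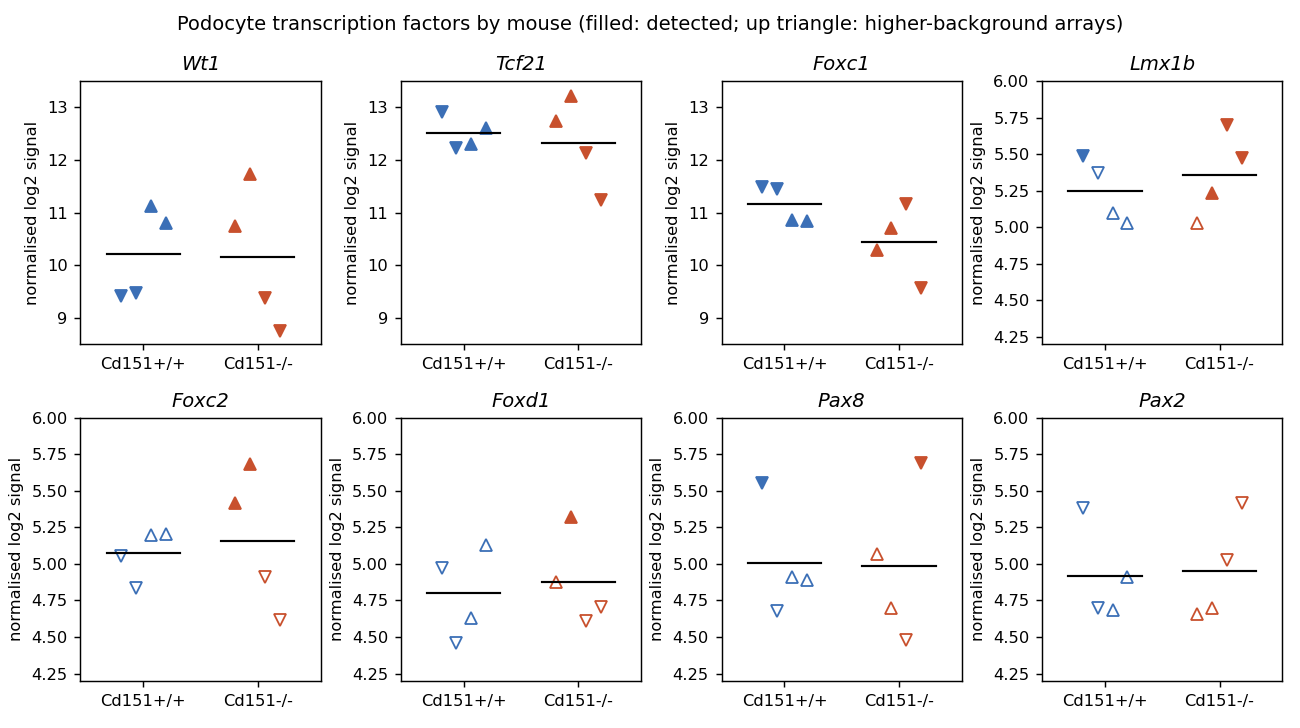
Normalised log2 signal of each gene's brightest probe by mouse, in 4 Cd151+/+ and 4 Cd151-/- mice, where the bar is the group mean, filled symbols were detected, and upward triangles are the higher-background arrays. The first 3 panels share a vertical axis and the other panels a narrower axis near background. In the Wt1 panel the upward triangles lie above the downward triangles in both genotypes.

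Wt1 lies at chr2:105126529-105173614 (GRCm38.p6), and its only probe was ILMN_2470646. Its normalised log2 signal was 9.42, 9.47, 11.13 and 10.81 in Cd151+/+ mice 1 to 4, and 10.75, 11.74, 9.38 and 8.75 in Cd151-/- mice 1 to 4. The genotypes overlapped fully, and within each genotype a high pair stood apart from a low pair. The means were 10.21 ± 0.89 in Cd151+/+ mice and 10.15 ± 1.35 in Cd151-/- mice (SD, n = 4 each), a log2 difference of -0.05 with a 95% interval of -1.43 to 1.32 (limma, adjusted p = 0.992; exact permutation test, two-sided p = 0.857). That interval includes 2-fold differences in both directions. With the array set in the model the difference was the same, with a narrower 95% interval of -0.64 to 0.54 (limma, adjusted p = 0.943). That interval leaves out 2-fold differences either way, but the sets were drawn from these same arrays. Without the set in the model, the difference moved to 0.87 when arrays were weighted and to between -0.59 and 0.41 leaving out 1 mouse.

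Which pair was high followed the array set. Mean Wt1 signal was 9.26 ± 0.34 on the 4 lower-background arrays and 11.11 ± 0.45 on the 4 higher-background arrays (SD), with no overlap. With genotype in the model, the sets differed by 1.85 on the log2 scale (SE 0.26, 95% interval 1.26 to 2.44), or 3.61-fold (limma, adjusted p = 0.00233). The difference was 1.53 within Cd151+/+ mice and 2.18 within Cd151-/- mice, and 67 of the 14967 tested probes had a larger one in either direction. Of the 7 tested genes 1, Wt1, passed the threshold for the sets, against 23.9% of all probes tested. After normalisation the sets did not overlap for 3, Wt1, Lmx1b and Foxc2, against 25.2% of all probes. Lmx1b and Foxc2 were read near background. The summed podocyte marker signal overlapped between the sets, with 94079 to 110343 on the lower-background and 85859 to 106936 on the higher-background arrays. The split was already there before normalisation: the deposited Wt1 signal was 4.26 to 6.20 times the background of its own array in the lower-background set and 20.6 to 45.5 times in the higher-background set. The median of all detected probes also rose, from 3.02 to 3.39 times background in the lower-background set to 3.49 to 4.56 times in the higher-background set. Within the lower-background set the Cd151-/- mean of normalised Wt1 was 0.38 below the Cd151+/+ mean on the log2 scale, and within the higher-background set the log2 difference was 0.27.

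**Figure D2:**
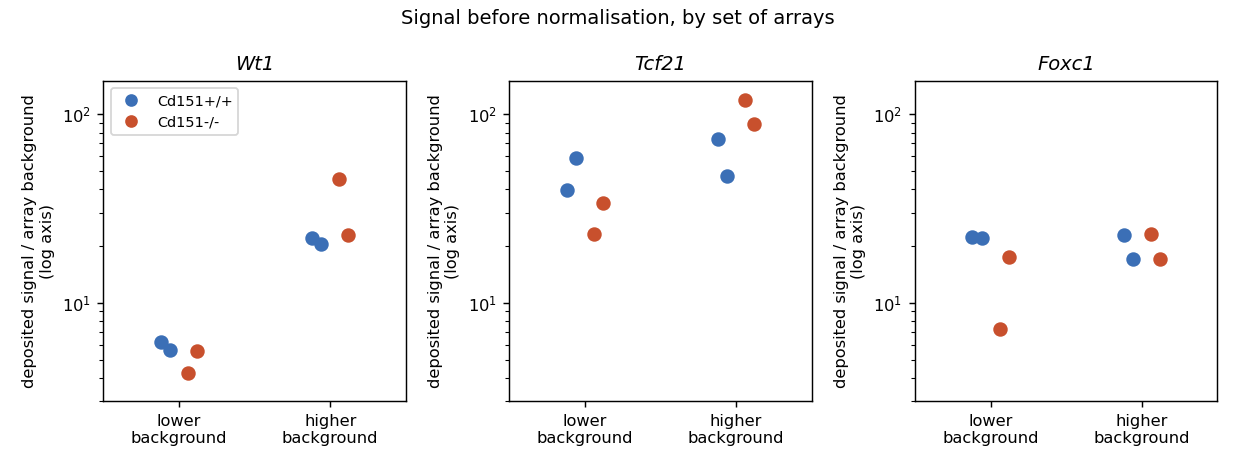
Deposited signal divided by the background of the same array (log axis) for Wt1, Tcf21 and Foxc1, by array set, with 1 point per mouse coloured by genotype. Wt1 sits between 4.26 and 6.20 on all lower-background arrays and between 20.6 and 45.5 on all higher-background arrays, while the sets overlap for Tcf21 and Foxc1.

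Probes chosen for a pattern over the 8 mice most like that of Wt1 carried its split between the array sets. Among the 9494 probes of other genes detected on all arrays, the highest Pearson correlations with the Wt1 probe were those of Tuba1a, an alpha-tubulin (r = 0.998, Spearman rho = 0.952), Rps20, a ribosomal protein (r = 0.990), Fhl2, a LIM domain protein (r = 0.990), 9830124H08Rik (r = 0.988) and Bcl10, a signalling adaptor (r = 0.987). Each of these 5 probes was higher in the higher-background set, by 0.56 to 1.58 on the log2 scale, and 111 probes had a correlation above 0.95. These correlations describe 8 arrays in separate clusters and share the array set. The higher signal of the 5 probes in the higher-background set follows from choosing them for likeness to Wt1.

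Tcf21 (chr10:22817263-22820143, probe ILMN_2930707) gave 12.91, 12.23, 12.30 and 12.61 in Cd151+/+ mice 1 to 4 and 12.74, 13.21, 12.13 and 11.24 in Cd151-/- mice 1 to 4. The Cd151-/- mice held both the highest and the lowest value, and the genotypes overlapped. The mean log2 signal was 12.51 ± 0.31 against 12.33 ± 0.85 (SD, n = 4 each), a difference of -0.18 (SE 0.38, 95% interval -1.02 to 0.66; limma, adjusted p = 0.940; exact permutation test, two-sided p = 0.743). The direction turned with the array set: Cd151-/- minus Cd151+/+ was -0.88 on the lower-background arrays and 0.52 on the higher-background arrays. The interaction of genotype and array set was 1.40 (SE 0.52), with an unadjusted p of 0.0253 and an adjusted p of 0.977 (limma). It thus failed the correction, and 3.51% of all probes had an unadjusted interaction p under 0.05.

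Foxc1 (chr13:31806646-31810635, probe ILMN_2886260) gave 11.50, 11.44, 10.85 and 10.85 in Cd151+/+ mice and 10.29, 10.72, 11.17 and 9.56 in Cd151-/- mice, in the order of mouse number. Cd151-/- mice 1, 2 and 4 lay below all 4 Cd151+/+ mice, and Cd151-/- mouse 3 lay between the Cd151+/+ values. The means were 11.16 ± 0.36 and 10.43 ± 0.68 (SD, n = 4 each), a log2 difference of -0.73 (SE 0.34, 95% interval -1.47 to 0.02; limma, adjusted p = 0.918; exact permutation test, two-sided p = 0.114). The difference was negative in both array sets, -1.10 on the lower-background and -0.35 on the higher-background arrays, and with the array set in the model its adjusted p was 0.443 (limma). Without Cd151-/- mouse 4 it was -0.43.

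Cd151-/- mouse 4 had the lowest value of all 8 mice for Wt1, Tcf21 and Foxc1. It also had the highest summed proximal tubule marker signal, 94233 against 25000 to 83606 in the other mice, and the lowest summed signal of the mesangium markers and of the glomerular endothelium markers. The other tubular list went the opposite way in this mouse. Its summed loop, distal tubule and collecting duct marker signal was the lowest, 27316 against 39543 to 67042 in the other mice. All 11 proximal tubule markers on the array of 12 listed were higher in mean in Cd151-/- mice, with a median log2 difference of 0.76, and 0 of the 11 passed the adjusted threshold. The unadjusted threshold was passed by 2 of them, against 4.3% of all probes tested. These were Kap at 1.38 and Slc22a8, an organic anion transporter, at 1.45 without overlap between genotypes (limma, adjusted p = 0.918 and 0.744). Of all tested probes, 2.31% had no overlap between genotypes. All 4 Cd151-/- arrays detected Slc22a8, against 1 of the 4 Cd151+/+ arrays. Their summed normalised signal ranged from 25000 to 79105 in Cd151+/+ mice and from 47596 to 94233 in Cd151-/- mice. None of these markers was undetected, and Slc34a1 and Miox were among the brightest. The podocyte markers, of which 8 of 10 were on the array, summed to between 100457 and 107155 in Cd151+/+ mice and between 85859 and 110343 in Cd151-/- mice, with Cdkn1c and Ptpro among the brightest and Kirrel not detected on any array. All 6 tested podocyte markers were lower in mean in Cd151-/- mice, with a median log2 difference of -0.21, and 0 of the 6 passed the adjusted or the unadjusted threshold. The part of tubular or podocyte content in the Foxc1, Tcf21 and Wt1 values was not tested.

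The starts of Tcf21 and Foxc1, a pair of factors detected in every mouse, are shown as the regulatory sequence next to the measured genes. Each window runs from 250 bases before to 50 bases after the start (RefSeq, GRCm38.p6), and capitals mark matches to CCAAT or GGGCGG on either strand.
Tcf21, chr10:22820094-22820393, minus strand: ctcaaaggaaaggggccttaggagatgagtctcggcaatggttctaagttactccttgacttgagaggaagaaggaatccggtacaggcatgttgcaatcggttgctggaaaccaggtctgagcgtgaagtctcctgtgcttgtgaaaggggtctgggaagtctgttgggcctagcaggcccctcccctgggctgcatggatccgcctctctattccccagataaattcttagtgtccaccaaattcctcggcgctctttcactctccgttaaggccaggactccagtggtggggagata
Foxc1, chr13:31806396-31806695, plus strand: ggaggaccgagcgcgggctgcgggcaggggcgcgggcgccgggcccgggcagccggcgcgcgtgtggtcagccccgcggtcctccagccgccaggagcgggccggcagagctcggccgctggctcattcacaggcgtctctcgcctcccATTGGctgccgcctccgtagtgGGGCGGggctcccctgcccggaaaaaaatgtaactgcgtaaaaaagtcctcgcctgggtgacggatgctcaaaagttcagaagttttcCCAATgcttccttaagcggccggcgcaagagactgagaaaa
The Tcf21 window, with 53.3% G and C, held no match to any motif searched. The Foxc1 window, with 67.3% G and C, held CCAAT at positions 150 to 154 and 260 to 264 and GGGCGG at 172 to 177, counted from 1 at the 5′ end. Across 32851 promoter windows, 37.4% held CCAAT, 35.7% GGGCGG, 72.3% the E-box CANNTG and 13.6% TATAAA. Of the 8 windows found for 6 of the 8 genes, 0 held GCGTGGG, a site of the WT1 and EGR type present in 5.04% of all windows, 0 held the forkhead site TGTTTAC (3.65%) and 0 held TAATTA (5.29%), a homeodomain site. CANNTG was in 5 of the 8 windows, and the Pax2 gene has 3 of these 8 windows.

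Lmx1b (chr2:33560965-33641208, probe ILMN_2931640), the factor mutated in nail-patella syndrome, was read close to background. Its log2 signal was 5.48, 5.37, 5.10 and 5.03 in Cd151+/+ mice, of which mouse 1 passed detection, and 5.03, 5.24, 5.70 and 5.47 in Cd151-/- mice, of which mice 2, 3 and 4 passed. The genotypes overlapped, and the deposited signal was 1.16 to 1.31 times background. The mean was 5.25 ± 0.22 in Cd151+/+ and 5.36 ± 0.29 in Cd151-/- mice (SD, n = 4 each), a log2 difference of 0.11 (SE 0.22, 95% interval -0.38 to 0.60; limma, adjusted p = 0.939; exact permutation test, two-sided p = 0.571). After normalisation Lmx1b was lower on all higher-background arrays than on the lower-background arrays, by 0.41 on the log2 scale, which did not pass the test (limma, adjusted p = 0.0771). Before normalisation the sets overlapped, at 1.17 to 1.22 times background in the lower-background set and 1.16 to 1.31 in the higher-background set. In the higher-background set only Cd151-/- mouse 2 passed detection.

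Foxc2 (chr8:121116171-121118895, probe ILMN_2703433), the paralog of Foxc1, was detected in no Cd151+/+ mouse and in Cd151-/- mice 1 and 2. Its log2 signal was 5.05, 4.84, 5.20 and 5.21 in Cd151+/+ mice and 5.42, 5.69, 4.91 and 4.62 in Cd151-/- mice. The 2 detected arrays were the highest of the 8, and both belong to the higher-background set. Because the probe was not well above background in the Cd151+/+ group, no fold is given. The means were 5.07 ± 0.17 and 5.16 ± 0.48 (SD, n = 4 each; limma, adjusted p = 0.962). The lower-background arrays lay below all higher-background arrays, but Foxc2 was detected on none of them (0.972 to 1.11 times background), so no fold is given between the sets either.

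Foxd1 (chr13:98354245-98356705, probe ILMN_2706755), which marks the stromal progenitors of the developing kidney as well as podocytes, was detected in Cd151-/- mouse 2 alone. Its log2 signal ranged from 4.46 to 5.13 in Cd151+/+ mice and from 4.61 to 5.32 in Cd151-/- mice, with means of 4.80 ± 0.31 and 4.88 ± 0.32 (SD, n = 4 each; limma, adjusted p = 0.962). These ranges overlap, and no fold is given.

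Neither paired box gene was detected in most mice. Pax8 (chr2:24420551-24475599, probe ILMN_2616389) was detected in Cd151+/+ mouse 1 at a log2 signal of 5.55 and in Cd151-/- mouse 4 at 5.69, and the other mice lay between 4.48 and 5.06. The group means were 5.01 ± 0.38 and 4.98 ± 0.53 (SD, n = 4 each), a difference of -0.02 (95% interval -0.69 to 0.64; limma, adjusted p = 0.992). The other Pax8 probe, ILMN_1256173, passed detection on no array. Pax2 (chr19:44746601-44838269) was detected by neither ILMN_1227108 nor ILMN_2949326 on any of the 8 arrays, with log2 signals of 4.42 to 4.78 and 4.66 to 5.42, and was not tested.

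**Figure D3:**
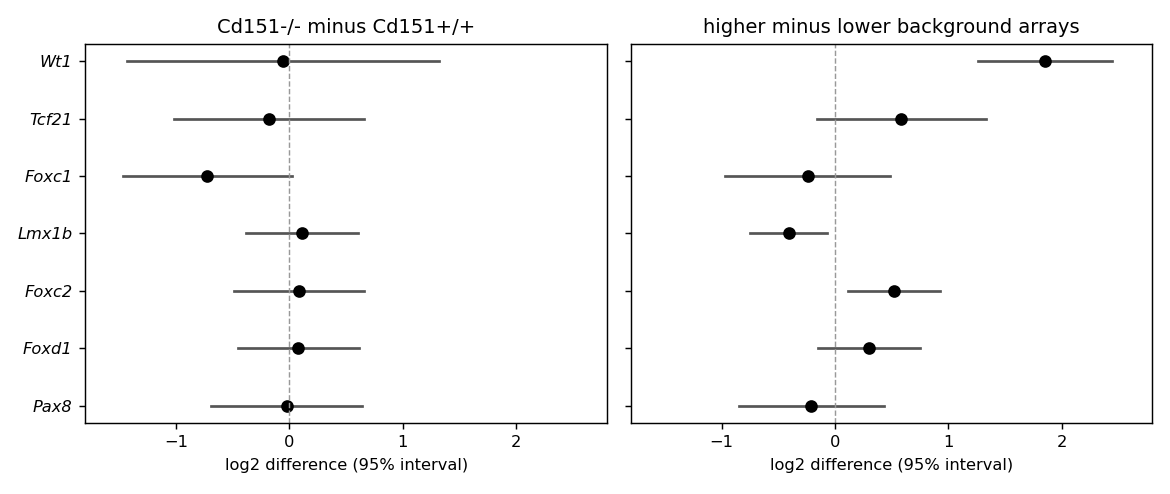
Log2 differences of the 7 tested genes with 95% intervals (limma), Cd151-/- minus Cd151+/+ on the left and higher-background minus lower-background arrays on the right. Every genotype interval spans 0, and the Wt1 set difference of 1.85 stands furthest from 0. The values of Lmx1b, Foxc2, Foxd1 and Pax8 are near background.

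Other transcription factors of the podocyte and nephron gave 20 tested genes of 24 listed. Of these, 5 were higher and 15 lower in mean in Cd151-/- mice, with a median log2 difference of -0.15 against -0.01 over all tested probes. The adjusted threshold was passed by 0 of them and the unadjusted one by 2, against 4.3% of all probes at the unadjusted threshold. Pbx2, a TALE homeodomain factor, gave 9.61, 9.54, 9.30 and 9.58 in Cd151+/+ mice and 8.90, 9.13, 9.22 and 8.65 in Cd151-/- mice, without overlap. Its difference was -0.54 (SE 0.21; limma, adjusted p = 0.918; exact permutation test, two-sided p = 0.0286, the smallest these groups allow). Any probe without overlap between the genotypes reaches that permutation p, and 2.31% of all tested probes had no overlap. Irx1, an Iroquois homeodomain factor of nephron patterning, differed by -0.80 (SE 0.33) with overlap, Irx2 by -0.54 and Irx3 by 0.36, all with an adjusted p of 0.918 (limma). The nephron factors Six2 and Emx2 were among those detected on no array.

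Podocyte genes known to act downstream of these factors gave 23 tested genes of 26 on the array. Of these, 3 were higher and 20 lower in mean in Cd151-/- mice, with a median log2 difference of -0.22, and 0 passed the adjusted threshold and 2 the unadjusted one. Over all tested probes, 4.3% passed the unadjusted threshold, and 7349 were higher and 7618 lower in mean. The mean was lower in Cd151-/- mice also for 6 of 6 podocyte markers and 7 of 8 glomerular endothelium markers, and higher for 11 of 11 proximal tubule markers. The part of cell content in these differences was not tested. Sulf1, a heparan sulfate sulfatase, differed by -0.65 (SE 0.29), Plce1, a phospholipase mutated in nephrotic syndrome, by -0.56 (SE 0.24), Actn4, the actin crosslinker, by -0.52, Ptpro, a podocyte membrane phosphatase, by -0.43 and Col4a5, a basement membrane collagen chain, by -0.39, all with an adjusted p of 0.918 (limma) and with overlap between genotypes. For the array sets, 1 of the 20 factors and 1 of the 23 podocyte genes passed the threshold, against 23.9% of all probes. Meis1 was 0.81 higher in the higher-background set (limma, adjusted p = 0.0461), and Lamb2 differed by -1.08 with that set lower (limma, adjusted p = 0.0116). Cd2ap, Kirrel and Magi2 were detected on no array.

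**Figure D4:**
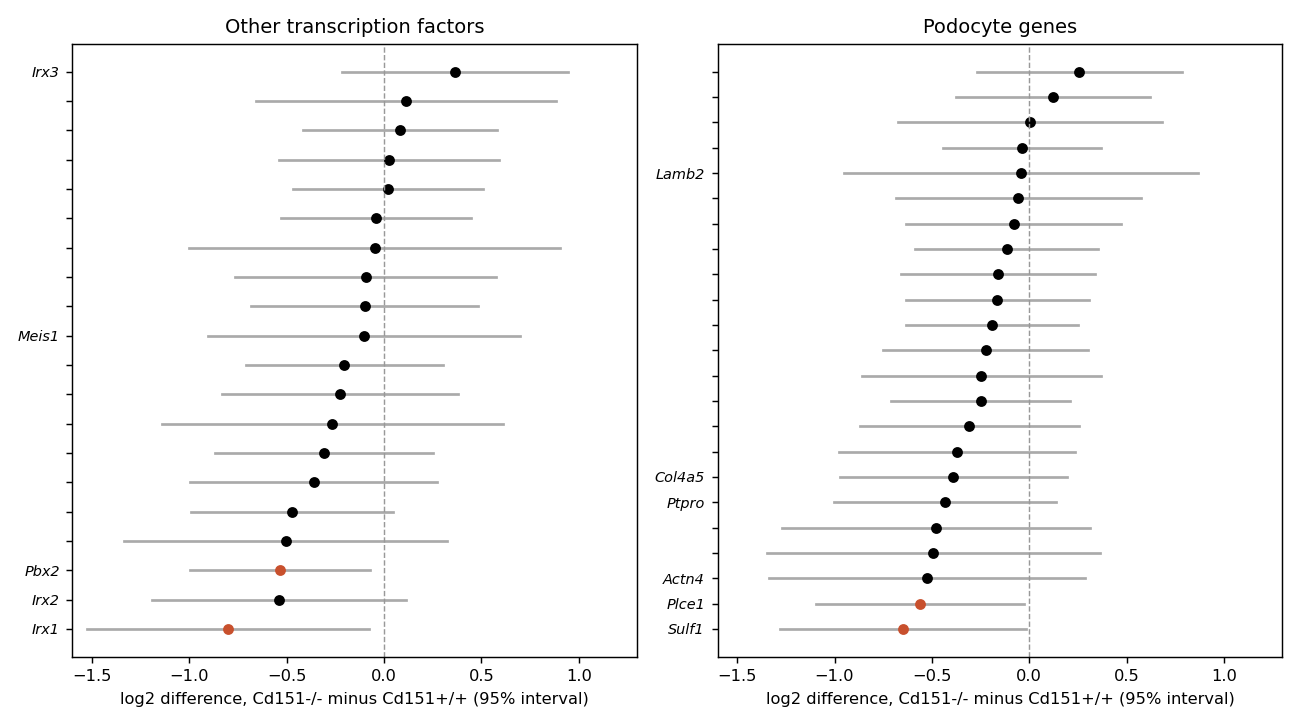
Log2 differences, Cd151-/- minus Cd151+/+, with 95% intervals (limma) for 20 other transcription factors and 23 podocyte genes, where coloured points have an unadjusted p under 0.05 and genes described in the text are labelled. Points lie left of 0 for 15 of the 20 factors and 20 of the 23 podocyte genes, and 0 pass the adjusted threshold.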

How the data were processed

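The authors isolated glomeruli by perfusing mouse kidneys with magnetic beads, digesting with collagenase and washing on a magnet, and hybridised biotin-labelled cRNA to the bead arrays. They deposited non-normalised intensity values, the mean signal per probe and array, with a detection p-value per value, exported from GenomeStudio (version not given in the sources used here). Here, limma 3.58.1 in R 4.3.3 was used: background was estimated from the deposited detection p-values (neqc, normexp, offset 16), followed by quantile normalisation and log2. Probes detected (p at most 0.05) on at least 1 array were kept, and lmFit and eBayes were fitted with Benjamini-Hochberg adjustment over 14967 probes. The probe with the highest mean stood for a gene. Single probes were also tested by an exact permutation test over 70 relabelings (smallest two-sided p 0.0286). The number of arrays limits the precision. In simulated data from these means, 76.5% of 200 probes changed by a log2 of 2 were recovered, and 0 of those changed by 1. Bounds for Cd151, not detected in Cd151-/- mice, set the mean of Cd151+/+ mice against the lowest signal among detected probes of each array.

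The genes and lists were chosen with earlier results of these data known, and the array sets were also known from them. The text names all 8 genes, Cd151, the 5 genes with the smallest p in each of the other 2 gene lists, the 3 brightest and the undetected markers of the cell type lists it uses, genes past the threshold, and the 5 probes most like Wt1. Some genes this rule would name are not reported here. Comparisons of the array sets under other settings and the interaction were added after seeing the data. Promoters came from RefSeq (GRCm38.p6), and no promoter entry was found for Wt1 and Foxc2.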

Additional observations from a re-analysis of the deposited data

How the results depend on the processing

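No member passed the adjusted threshold for genotype under any alternative run, and the lowest adjusted p was 0.0885, for Foxc1 with array weights (limma). Foxc1 stayed negative under all 18 alternatives (-0.97 to -0.43 leaving out 1 mouse, -0.90 to -0.69 otherwise), with an unadjusted p under 0.05 in 5 of them and a lowest one of 0.00476 with array weights (limma). The other members turned direction. With array weights, the log2 difference was 0.87 for Wt1, 0.13 for Tcf21 and -0.15 for Lmx1b. With scaling to the 75th percentile it was -0.091 for Lmx1b, -0.0038 for Foxc2 and -0.11 for Foxd1. Leaving out 1 mouse at a time gave -0.59 to 0.41 for Wt1, -0.48 to 0.18 for Tcf21, -0.0023 to 0.20 for Lmx1b, -0.084 to 0.28 for Foxc2, -0.038 to 0.18 for Foxd1 and -0.27 to 0.17 for Pax8. The cause was not tested. The Wt1 set difference was 1.59 to 2.00 under all 16 alternatives (limma, adjusted p 0.000818 to 0.0113). Set differences turned for Foxc2 (-0.43) and Foxd1 (-0.82) with scaling to the 75th percentile, which moved the median of all probes to -0.40 from -0.04. That of Pax8 turned when arrays were weighted (0.059) and when Cd151-/- mouse 4 was left out (0.033). That of Foxc1 turned when Cd151-/- mouse 3 was left out (0.0051). The Foxc1 set difference passed the test without Cd151-/- mouse 4 (-0.63, limma, adjusted p = 0.0219), and that of Lmx1b passed with 75th percentile scaling (-1.12), no detection filter (-0.41) and array weights (-0.47). Those of Foxd1 (-0.82, limma, adjusted p = 0.00518) and Pax8 (-1.19, limma, adjusted p = 0.00166) also passed with 75th percentile scaling, and that of Foxc2 with array weights (0.45, limma, adjusted p = 0.0486). Over all probes, the count higher in Cd151-/- mice went from 1 to 0 with no detection filter and with the mouse number as a replicate block, and was 0 to 1 leaving out 1 mouse. The count lower went from 4 to 7 with the array set as a block. Erythroid markers past the threshold numbered 0 to 1 leaving out 1 mouse. Same-numbered mice of the 2 genotypes correlated at -0.58 to -0.0086 in their deviations. Each such pair crossed the array sets, so these correlations cannot show whether the numbers pair the mice. The replicate block changed no call of a member. Under detection on all 4 arrays of a genotype, Lmx1b, Foxc2, Foxd1 and Pax8 were left out, and the other probes of Pax2 and Pax8 gave no tested value.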

Other observations

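The 5 tested probes of Actb, which encodes beta-actin and was chosen after its values were seen, had log2 differences of 0.61 to 3.66 between the sets, higher-background minus lower-background, and 2 of the 5 passed the adjusted threshold (limma). Among the glomerular endothelium markers, 4 of 8 tested passed the threshold for the sets (limma), against 23.9% of all probes tested: Cdh5, the endothelial cadherin, at -1.28, the receptor Tie1 at -1.08 and the VEGF receptor Kdr at -0.55 were lower in the higher-background set, and Flt1, the other VEGF receptor, was 1.04 higher. The part of this in the Wt1 difference between the sets was not tested.

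The median difference of the 4 tested erythroid markers, Cd151-/- minus Cd151+/+, was -0.63. Alas2, the erythroid enzyme of heme synthesis, differed by -2.57. Of the 4 markers, 0 passed the adjusted threshold and 2 the unadjusted one, which 4.3% of all tested probes passed. Their summed normalised signal was 38047 to 50071 in Cd151+/+ and 17868 to 37445 in Cd151-/- mice.

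In each remaining cell type list 0 genes passed the adjusted threshold for genotype (limma). The median log2 difference was -0.39 over 8 glomerular endothelium markers (Emcn, Ehd3 and Pecam1 brightest, Plat not detected), -0.26 over 6 mesangium and smooth muscle markers (Agtr1a, Acta2 and Des brightest, Cnn1 not detected) and 0.18 over 7 parietal epithelium markers (Cldn2, Akap12 and Vcam1 brightest, Cd24a not detected). It was -0.18 over 8 markers of loop, distal tubule and collecting duct (Umod and Slc12a1 among the brightest, Calb1 and Kcnj1 not detected) and -0.06 over 4 leukocyte markers, of which the defining genes Ptprc, Itgam, Emr1 and Cd79a were detected on no array. At the unadjusted threshold of 0.05, 1 mesangium and smooth muscle marker was higher (Acta2) and 1 lower (Pdgfrb), and 0 of the others passed. Of all tested probes, 4.3% passed it.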
